A study of Mus musculus with 32 samples.

Results

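The data described here are the 24 lung RNA-seq libraries, of 32 libraries in the whole series, in which RNA of the same 12 mice was sequenced both after poly(A) selection (PolyA) and after removal of ribosomal RNA (RiboZero). The members were all PolyA and all RiboZero columns of the gene table, 12 on each side, and each PolyA library was compared with the RiboZero library of the mouse of the same name. The mice were adult C57b/6 animals aged 8 to 18 weeks, 6 wild-type (WT) and 6 Bmal1 knockout (KO), bred in-house and labelled female. No treatment is given, and the sources used here do not say in which cells the Bmal1 allele was deleted. Lungs were snap-frozen, and 200 ng of RNA entered each stranded TruSeq library, which carried unique molecular identifiers and was amplified by 11 cycles of PCR. The series asks how the choice of library preparation affects RNA-seq measurements in this tissue.

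Most messenger RNAs and many long noncoding RNAs end in a tail of adenosines, added after cleavage downstream of a signal that usually reads AATAAA or ATTAAA, and oligo(dT) beads capture RNA by this tail. Replication-dependent histone mRNAs end instead in a conserved stem-loop, and RNAs made by RNA polymerase III, such as 7SK, have no poly(A) tail. Removal of ribosomal RNA leaves all of these in the library, together with nascent and partly processed nuclear RNA, so the 2 selections sample different RNA pools of the same tissue.

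The 3′ ends of several RNAs described below show the elements that bear on tail addition, as read from the GENCODE M21 transcripts (GRCm38). The first lines give 26 bases around the histone stem-loop of 6 histone genes, with the stem-loop in capitals, and the 2 histone genes with a poly(A) signal near their end are shown again at that signal, in capitals. The number of bases between the printed window and the annotated transcript end follows the position.
Hist1h4f, chr13:23551286-23551311, minus strand, 28 bases before the end: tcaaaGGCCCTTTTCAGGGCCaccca
Hist1h3b, chr13:23752815-23752840, plus strand, 46 bases before the end: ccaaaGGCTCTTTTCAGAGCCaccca
Hist2h2ac, chr3:96220413-96220438, minus strand, 52 bases before the end: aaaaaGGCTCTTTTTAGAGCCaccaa
Hist2h3c2, chr3:96238480-96238505, minus strand, 372 bases before the end: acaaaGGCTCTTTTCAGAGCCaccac
Hist1h1c, chr13:23739507-23739532, plus strand, 835 bases before the end: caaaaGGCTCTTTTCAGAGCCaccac
Hist1h1c poly(A) signal, chr13:23740338-23740367, plus strand, at the end: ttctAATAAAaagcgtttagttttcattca
Hist3h2a, chr11:58955167-58955192, plus strand, 1638 bases before the end: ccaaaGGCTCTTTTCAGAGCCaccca
Hist3h2a poly(A) signal, chr11:58956793-58956822, plus strand, 8 bases before the end: gcccAATAAAataagagtacgtgtataaca

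The next lines give the last 45 bases of 3 nuclear long noncoding RNAs, with AATAAA in capitals where the script found it. Malat1 is a nuclear speckle RNA whose main 3′ end is cut by RNase P and protected by a triple helix. Neat1 forms paraspeckles and has a short polyadenylated form and a long form that ends like Malat1. Xist coats the inactive X chromosome.
Malat1, chr19:5795690-5795734, minus strand: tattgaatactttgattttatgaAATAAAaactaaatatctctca
Neat1 short transcript, chr19:5842307-5842351, minus strand: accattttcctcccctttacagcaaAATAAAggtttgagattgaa
Neat1 long transcript, chr19:5824708-5824752, minus strand: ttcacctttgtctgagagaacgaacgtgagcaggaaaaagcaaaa
Xist, chrX:103460366-103460410, minus strand: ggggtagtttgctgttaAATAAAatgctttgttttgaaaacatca

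AATAAA or ATTAAA lay on the transcript strand within the last 40 bases of 76.1% of annotated protein-coding genes and of 45.9% of annotated long noncoding genes. Among the rows tested the shares were 83.8% and 69.7%. The histone stem-loop was found within 100 bases of the end in 25 of 21951 protein-coding genes (0.114%). A match to these letters is a description of the annotation, and transcript ends were not measured in these libraries.

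The PolyA libraries held 29924271 to 41548759 estimated counts (median 34015101) and the RiboZero libraries 11638590 to 25801192 (median 20037870). Within a mouse the PolyA library held 1.30 to 3.08 times as many. All 39 lung cell marker genes were tested, with summed levels of 61183 to 86983 normalised counts (CPM, counts scaled to a common TMM-adjusted library total) in PolyA and 36464 to 48270 in RiboZero, whereas 8 liver markers summed to at most 2.46 and 3.10 CPM. Heart markers summed to 110 to 972 CPM in PolyA and 44.6 to 552 in RiboZero. Arntl, the gene that encodes BMAL1, was at 27.5 to 33.6 CPM in WT and 24.1 to 29.1 in KO with PolyA, and at 38.4 to 48.0 in WT and 21.6 to 26.6 in KO with RiboZero. One KO mouse (KO6), labelled female, had Xist at 0.0673 CPM in PolyA and 0.115 in RiboZero, against 347 CPM or more in the other PolyA libraries. It was kept, and results that turn on it are given with and without it.

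The selections differed in the classes of RNA that the counts came from. Small noncoding RNAs made up 13.1% ± 0.905 (SD, n = 12 mice) of the counts in RiboZero and 0.00247% ± 0.000232 in PolyA. Malat1 alone took 2.77% ± 0.104 of RiboZero counts and 0.0349% ± 0.00739 of PolyA counts. Protein-coding genes outside the ribosomal protein, histone and mitochondrial classes took 90.7% ± 0.524 of PolyA counts and 77.0% ± 1.05 of RiboZero counts. Over the total of protein-coding and long noncoding rows alone, the difference in that share was 0.115 percentage points and did not pass the test (exact permutation p = 0.232). The 3 shares of all counts did not overlap between the 12 PolyA and the 12 RiboZero libraries.

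Cytoplasmic ribosomal protein genes took 2.60% ± 0.116 of the counts in PolyA and 1.17% ± 0.0756 in RiboZero, without overlap. Replication-dependent histone genes took 0.0174% ± 0.00235 and 0.0545% ± 0.00954, also without overlap. In each of these 5 classes the paired difference had the same sign in 12 of 12 mice, with p = 0.000488 in an exact two-sided sign-flip permutation test, the smallest p that 12 mice allow (adjusted p = 0.000586 over 12 shares). The mitochondrially encoded share was 3.38% ± 0.304 in PolyA and 3.40% ± 0.245 in RiboZero, and the difference did not pass the test (exact permutation p = 0.765). Over the protein-coding and long noncoding total the difference was -0.635 percentage points and did pass (exact permutation p = 0.000488). The mitochondrial class there still held its ribosomal RNAs, which that total leaves out. Of these, mt-Rnr2 had a median of 320 CPM in PolyA and 21600 in RiboZero. The difference is therefore not that of the mitochondrial mRNAs, whose own share is not given. Long noncoding RNAs without Malat1 took 0.856% ± 0.0704 and 0.734% ± 0.0421, higher in PolyA in 11 of 12 mice but with overlapping libraries (exact permutation p = 0.00146, adjusted p = 0.0016). Against the protein-coding and long noncoding total, that difference was -0.00684 percentage points (exact permutation p = 0.792).

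Across genes, 17228 rows were tested with edgeR's quasi-likelihood test, paired by mouse. A row was called when its adjusted p was under 0.05 and its levels differed at least 2-fold. Of all rows, 1145 (6.65%) were higher in PolyA and 2647 (15.4%) lower, and the median log2 difference, PolyA minus RiboZero, was 0.07. Of 14741 protein-coding rows 816 (5.54%) were higher and 1859 (12.6%) lower, with a median of 0.08. Of 806 long noncoding rows 64 (7.94%) were higher and 174 (21.6%) lower, with a median of -0.00. In 80.4% of called rows the 12 PolyA libraries did not overlap the 12 RiboZero libraries. Such separation was common in general: it held for 7654 of all 17228 tested rows. Among protein-coding rows that were not called, it held for 4453 of 12066. The fold is relative to the scaling: of called rows 30.2% were higher in PolyA with the TMM scaling used here, and 64.0% after scaling by total counts, which moved the median of all rows from 0.07 to 0.42. Differences below are on the TMM scale over all rows, on which the median protein-coding row lies at 0.08.

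Transcript length ordered the protein-coding rows. Rows of the shortest decile, with transcripts of 204 to 1281 bases, had a median log2 difference of 0.76, and 301 of 1479 (20.4%) were higher in PolyA while 75 (5.07%) were lower. Rows of the longest decile, 6671 to 123179 bases, had a median of -1.15, and 864 of 1474 (58.6%) were lower while 11 (0.746%) were higher. The medians of the deciles in between descended from 0.56 through 0.16 in the fifth to -0.58 in the ninth. Spearman's rho between length and log2 difference was -0.649 over 14741 genes of these libraries, a description across genes that share libraries and are not independent replicates.

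**Figure D1:**
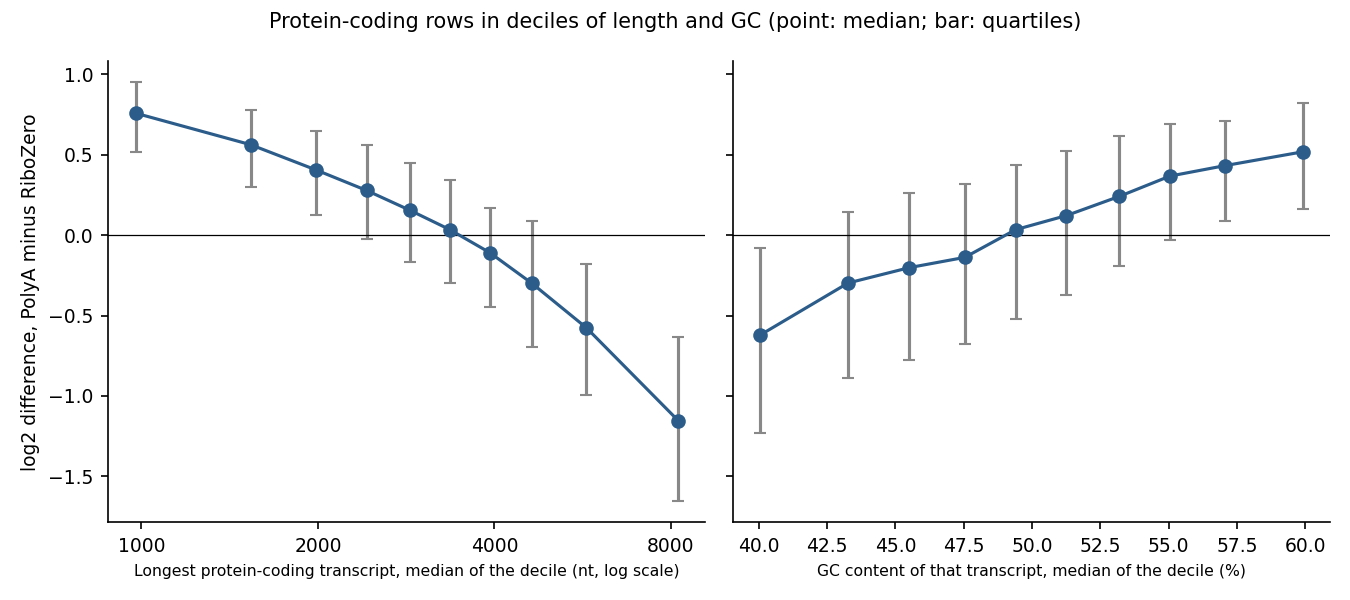
Median log2 difference (PolyA minus RiboZero, points) with quartiles (bars) in deciles of protein-coding rows ordered by transcript length in bases (log axis) and by GC content in percent. The medians descend from 0.76 in the shortest to -1.15 in the longest decile and ascend from -0.62 in the decile of lowest GC to 0.52 in the decile of highest GC.

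GC content ordered them in the other direction, and it varies with length. The decile of lowest GC (31.9% to 41.9%) had a median of -0.62 with 496 rows lower (33.6%), and the decile of highest GC (58.2% to 72.8%) a median of 0.52 with 208 rows higher (14.1%). Within deciles of GC, the rho with length ran from -0.706 to -0.441, and within deciles of length the rho with GC ran from 0.190 to 0.486. Both features therefore kept their direction within classes of the other. The gene groups at the corners of the 2 features stood far apart: the shortest quartile at high GC had a median of 0.71 and 262 of 1317 rows (19.9%) higher, and the longest quartile at low GC had -1.07 and 715 of 1302 rows (54.9%) lower. The longest quartile at high GC was at -0.09 and the shortest at low GC at 0.39.

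Parts of the gene differed in how they followed the difference. The rho was -0.552 with the genomic span, -0.520 with intron length, -0.497 with coding length and -0.462 with 3′ UTR length. Within deciles of transcript length, intron length kept a negative rho in each (-0.346 to -0.0588), as did coding length (-0.233 to -0.0696), whereas 3′ UTR length had 0.0126 to 0.101. The share of transcripts annotated with a retained intron or as targets of nonsense-mediated decay was nearly unrelated (-0.01). Genes called higher in PolyA had a median transcript length of 1611.5 bases, a 3′ UTR of 403.5 bases and 5404 bases of intron. Genes called lower had 6402, 2381 and 73615 bases. Rows with AATAAA or ATTAAA near the annotated end and rows without had medians of 0.08 and 0.09.

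The relation held in each mouse. The gap between the median of the shortest and that of the longest decile was 1.71 to 2.09 log2 units over the 12 mice (mean 1.89 ± 0.144, SD), and the rho per mouse lay between -0.645 and -0.609. WT mice had a mean gap of 1.90 and KO mice of 1.87, and the difference of 0.029 did not pass an exact permutation test over all 924 splits of the mice (p = 0.762, two-sided). As a share of protein-coding counts, the shortest decile took 17.1% ± 0.978 in PolyA and 8.01% ± 0.393 in RiboZero, and the longest decile 10.5% ± 0.382 and 23.6% ± 0.402. Neither pair of shares overlapped.

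**Figure D2:**
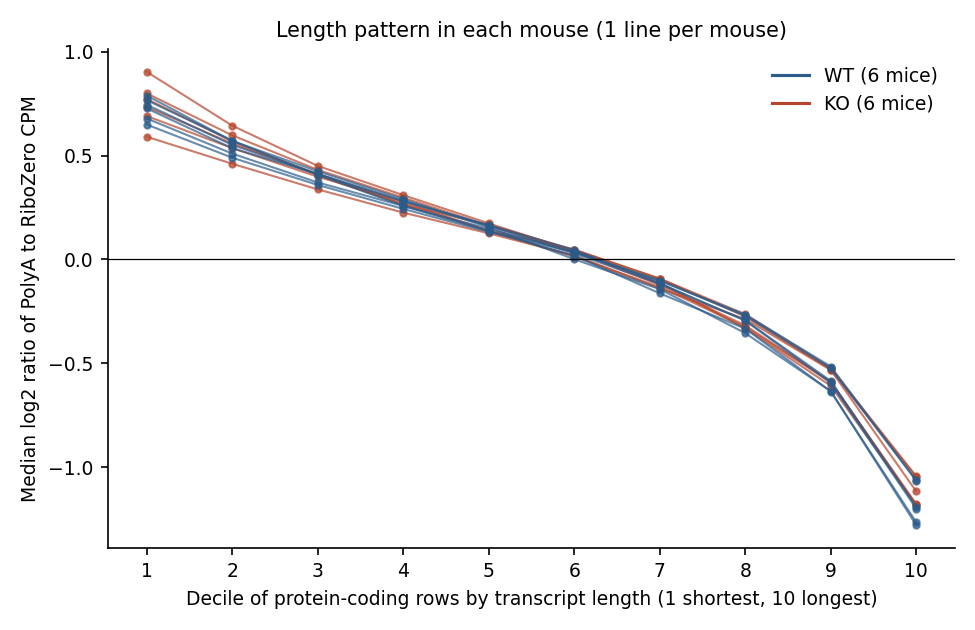
Median log2 ratio of PolyA to RiboZero CPM in deciles of protein-coding rows ordered by transcript length, with 1 line for each of the 12 mice, coloured by genotype. All lines descend, with gaps between the first and last decile of 1.71 to 2.09 log2 units.

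Among single protein-coding genes, the 10 lowest and 10 highest were taken from the called genes with at least 10 CPM in the higher preparation, no overlap between preparations and few 31-base words shared with other genes. There were 1202 such genes lower in PolyA and 354 higher. Bmpr2, the type II receptor for bone morphogenetic proteins whose mutations cause heritable pulmonary arterial hypertension, lies at chr1:59763400-59879014 and has a transcript of 12899 bases, of which 8529 are 3′ UTR. It was at 11.6 to 28.2 CPM in PolyA (median 14.4) and at 541 to 710 in RiboZero (median 614), a log2 difference of -5.27 (SE 0.096, adjusted p = 1.27e-17). Zfp871, a zinc finger gene with an 8856-base 3′ UTR, was at 1.24 to 4.71 CPM in PolyA (median 1.98) and 106 to 118 in RiboZero (median 112), a log2 difference of -5.66. That the libraries do not overlap was a condition of the choice for these genes.

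Lnpep, an aminopeptidase of insulin-responsive vesicles with 8339 bases of 3′ UTR, was at 4.85 to 8.03 CPM in PolyA (median 6.02) and 201 to 220 in RiboZero (median 212), a log2 difference of -5.06. Arfgef3, with 7742 bases of 3′ UTR, was at 0.574 to 1.46 CPM (median 0.807) and 45.4 to 74.8 (median 56.9), a log2 difference of -6.03. The list was not one of long 3′ UTRs alone: Gucy1a2, a subunit of the nitric oxide receptor guanylate cyclase, has an annotated 3′ UTR of 25 bases and a log2 difference of -5.45, with 0.604 to 1.04 CPM against 27.7 to 43.0. Gprin3 (-5.59), Lcor, a nuclear receptor corepressor (-4.92), and Farp2 (-5.43) completed it together with 2 genes listed at 0 counts in PolyA libraries. Farp2 overlaps another gene, and its PolyA libraries ranged from 0.0515 to 1.89 CPM.

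Ube2l3, a ubiquitin-conjugating enzyme, was listed at 0 in all 12 PolyA libraries and at 67.8 to 78.6 CPM in RiboZero, at least 962-fold lower against a floor of 3 counts per library. The median PolyA level of Hspa4l, a heat shock protein of the HSP110 family, was also 0, but single libraries reached 3.50 CPM, against 25.4 to 39.7 in RiboZero (-5.71). Ube2l3 shares 7.75% of its 31-base words with other genes and overlaps Ydjc on the opposite strand. Whether reads of these genes were assigned to other rows of the table was not tested.

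At the other end, Clec3b, which encodes the plasminogen-binding protein tetranectin and has a transcript of 992 bases, was at 32.3 to 107 CPM in PolyA (median 69.0) and 7.59 to 25.3 in RiboZero (median 16.9), a log2 difference of 2.07 (SE 0.036, adjusted p = 6.55e-18). Tekt2, a tektin of ciliary and flagellar microtubules with 1542 bases, was at 17.7 to 29.4 CPM (median 21.7) and 4.003 to 6.04 (median 5.10), a difference of 2.07. Clec3b varied over 3-fold among mice within both selections, and its values split by genotype. With PolyA it was at 74.4 to 107 CPM in WT and 32.3 to 63.6 in KO mice. With RiboZero it was at 17.1 to 25.3 in WT and 7.59 to 16.6 in KO. Ctxn1 (2.17), Chad, a cartilage matrix protein (2.05), Mospd3 (2.03), Zfp579 (1.81) and Gm867 (1.79) lay in the same range. Fuz, needed for building cilia, was listed at 0 in some RiboZero libraries and at up to 8.78 CPM in others, against 11.9 to 18.98 in PolyA (1.93).

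Dhx30, an RNA helicase of mitochondrial ribosome assembly, had the largest value among these 10, with 44.6 to 54.0 CPM in PolyA (median 47.8) and 4.47 to 12.7 in RiboZero (median 7.04), a log2 difference of 2.67. It overlaps Smarcc1 on the opposite strand, and Agbl5, a tubulin deglutamylase (2.10), also overlaps another gene. Tekt2, Chad, Fuz and Gm867 overlap genes on the opposite strand as well. So do Arfgef3, Farp2 and Ube2l3 among the lowest genes. Of the lowest long noncoding genes described below, Lncpint, Gm10115 and AC132307.5 have such an overlap. Of the highest, Fendrr, A930001A20Rik, Gm15587, Uckl1os, Gm16124 and A530020G20Rik have one. The strand setting of the counting is not given in the sources used here, so values of overlapping genes are uncertain.

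**Figure D3:**
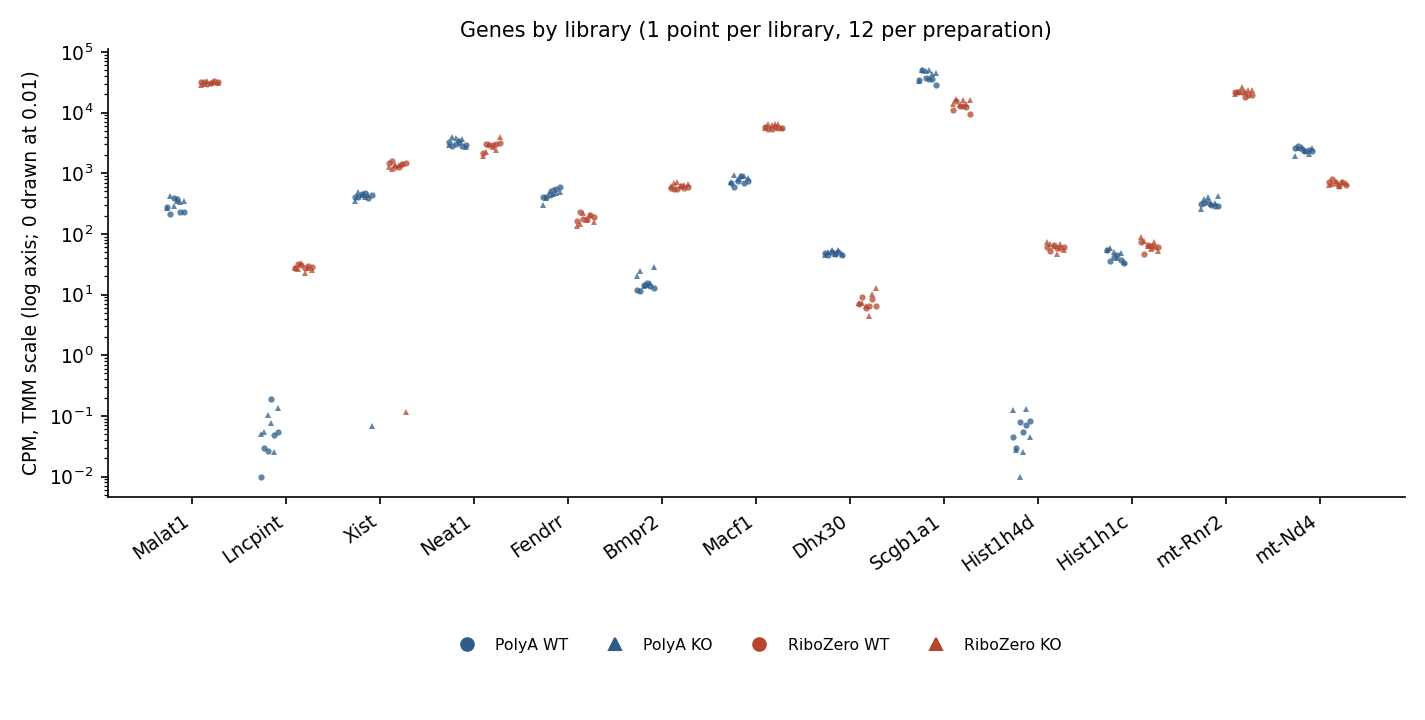
CPM (log axis, with 0 drawn at 0.01) of 13 genes in the 12 PolyA and 12 RiboZero libraries, 1 point per library. Malat1, Lncpint, Bmpr2, Macf1, Hist1h4d and mt-Rnr2 are lower in every PolyA library, and Fendrr, Dhx30, Scgb1a1 and mt-Nd4 higher, while Neat1 and Hist1h1c overlap and 1 KO mouse is near 0 for Xist.

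Replication-dependent histone genes had the lowest median of the protein-coding lists. Of 66 such genes in the table, whose products package newly made DNA, 50 were tested. Of these, 44 were lower in PolyA (88.0%, against 12.6% of protein-coding rows) and 0 higher. With at least 10 counts in every library, which removes genes near 0 in PolyA, 6 were lower, and 4 of the 5 rows with under 10% shared words. Their median log2 difference was -6.46, or -5.25 with the 18 genes at the counting floor in PolyA set to their bound. Hist1h4d was at 0 to 0.129 CPM in PolyA (median 0.0494) and 46.4 to 74.4 in RiboZero (median 60.7), a log2 difference of -9.90. Hist1h1e, a linker histone gene, was at 0.0449 to 0.352 CPM (median 0.142) and 36.6 to 70.7 (median 48.0), a log2 difference of -8.31. Of the genes whose ends are printed above, Hist1h4f was at least 113-fold lower, Hist2h2ac at least 80.9-fold and Hist1h3b at least 74.9-fold. In all of these the 2 selections did not overlap.

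The position of the stem-loop relative to the annotated end separated the histone genes in part. Where it ended within 100 bases of the transcript end, 18 of 18 were lower, with a median of -7.52 (-5.39 with bounds). Where it lay over 300 bases before the end, 13 of 16 were lower. Of those 16, the 7 with AATAAA or ATTAAA near the end had 5 lower and a median of -2.43, and the 9 without had 8 lower and a median of -7.89. Of 14 genes in which no stem-loop was found, 11 were lower.

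Among the 6 genes not called were those with a signal after the stem-loop shown above. Hist1h1c, a linker histone, was at 33.5 to 57.4 CPM in PolyA (median 43.0) and 46.2 to 90.3 in RiboZero (median 63.7), a log2 difference of -0.55. Hist3h2a was at 13.2 to 24.02 CPM (median 18.2) and 13.02 to 24.4 (median 15.8), a difference of 0.09. For both genes the libraries overlapped. Hist2h3c2 was at -0.97, and Hist1h2bc and Hist2h2be, without a detected stem-loop, at 0.37 and 0.45. The signal did not go with a small difference in each gene: Hist2h4 (-5.46), Hist4h4 (-5.09) and Hist1h4j (-5.06) hold one. Of the 50 genes 45 share over 10% of their 31-base words with other genes, so reads may be divided among copies and single values are uncertain.

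**Figure D4:**
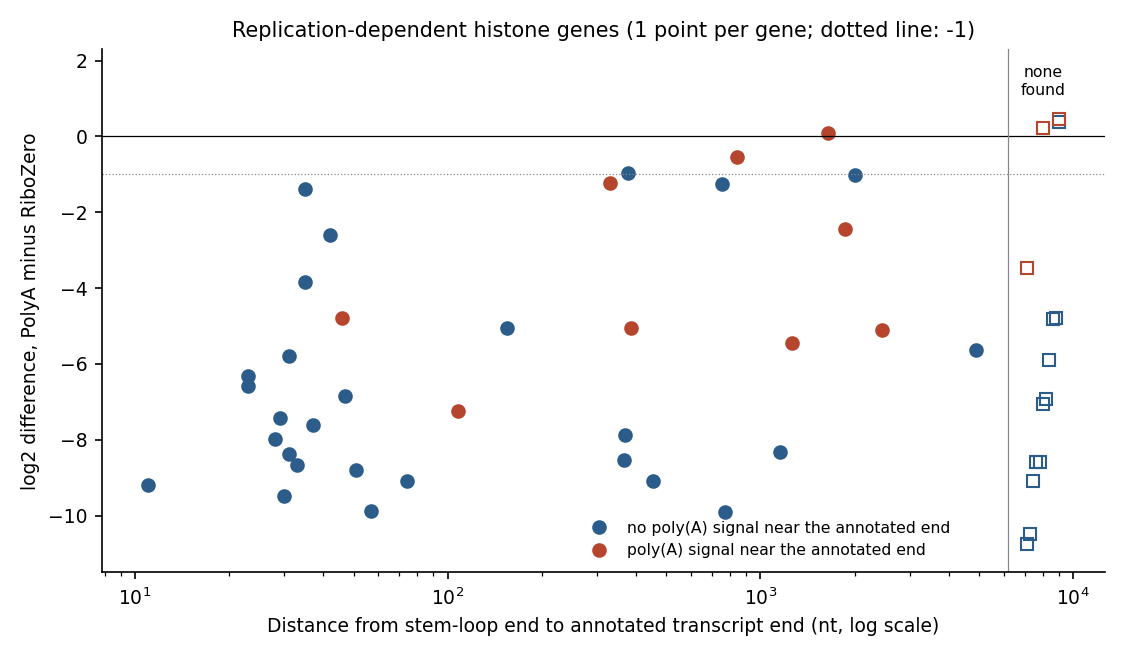
Log2 difference (PolyA minus RiboZero) of each tested replication-dependent histone gene against the distance in bases from the end of its stem-loop to the annotated transcript end (log axis; dotted line, 2-fold lower). Red points hold AATAAA or ATTAAA near the end and squares are genes without a detected stem-loop; the 18 genes with the stem-loop within 100 bases lie between -9.89 and -1.37.

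Histone genes that are expressed outside S phase behaved otherwise. Of 11 replication-independent histone genes 0 were lower and 1 was higher, H1fx at 2.19, with a median of 0.62. The list of RNA polymerase III transcripts and other RNAs without a tail had 8 of 8 tested genes lower (3 with at least 10 counts in every library and 2 of the 2 with under 10% shared words). Rn7sk, the RNA that holds the elongation factor P-TEFb inactive, was at 0.467 to 1.00 CPM in PolyA and 24620 to 29319 in RiboZero. Rpph1, the RNA of RNase P, was at 0 to 0.227 CPM against 3086 to 4773, and Rmrp, the RNA of RNase MRP, at 0 to 0.151 against 1549 to 2289. These 3 RNAs were near 0 in every PolyA library. Rn7sk shares 72.8% of its 31-base words with other genes, Rpph1 70.2% and Rmrp 100%, so their single values are uncertain.

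Nuclear long noncoding RNAs, from a list of 15 tested genes, were called lower in 9 (60.0%, against 21.6% of long noncoding rows) and higher in 0 (against 7.94%), with a median of -1.15. Malat1 was at 214 to 422 CPM in PolyA (median 312) and 28882 to 32602 in RiboZero (median 31409), a log2 difference of -6.68 (SE 0.111, adjusted p = 4.42e-18) in 12 of 12 mice. Neat1 was at 2658 to 3909 CPM (median 3149) and 1933 to 3918 (median 2916), a difference of 0.22 (adjusted p = 0.0488) with overlapping libraries and higher PolyA values in 8 of 12 mice. The table gives 1 value per gene, so the short and long forms of Neat1 could not be separated. Airn, the antisense RNA that silences the imprinted Igf2r domain, was at 4.53 to 8.50 CPM and 19.5 to 29.4, a difference of -1.88 without overlap.

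Xist was at a median of 425 CPM in PolyA and 1363 in RiboZero, a log2 difference of -1.69. Without KO6 the difference was again -1.69, and the other 11 mice were at 347 to 485 CPM in PolyA and 1188 to 1596 in RiboZero, without overlap. Its antisense RNA Tsix (-1.86) and its neighbours Jpx (-1.15) and Ftx (-1.15), both linked to Xist activation, were also lower, as were Dleu2 (-2.02) and Pvt1 (-1.27). Meg3, an imprinted RNA, was at 0.84, Miat at 0.97 and Firre, which anchors chromatin of several chromosomes, at 0.30, none of them called. The printed ends of Malat1 and Xist both hold AATAAA, and the gene values differ in size.

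Other lists of long noncoding genes showed few calls. Of 7 cytoplasmic long noncoding RNAs 0 were called in either direction (median 0.12), and of 15 noncoding host genes of small nucleolar RNAs also 0 (median 0.64). Snhg20 was at 0.97 and Gas5, a growth arrest RNA that hosts many small nucleolar RNAs, at 0.43. Of 5 listed microRNA host genes that were tested 1 was lower, Mir99ahg at -1.50. By annotation, however, 36 tested long noncoding rows held a microRNA gene on the same strand. Of these, 17 were lower (47.2%, against 21.6% of long noncoding rows) and 2 higher, with a median of -0.73. Rows that held a small nucleolar RNA gene had 1 of 28 lower and 2 higher (median 0.54).

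The annotated position of long noncoding genes went with the difference. Of 34 rows annotated as sense intronic, meaning inside an intron of a gene on the same strand, 28 were lower and 1 higher, with a median of -5.01 (-3.33 with bounds). By position alone, 33 of 45 rows inside an intron of a protein-coding gene on the same strand were lower (median -3.22), against 141 of the other 761 (median 0.04). Intergenic genes had 58 of 216 lower (median -0.06), antisense genes 48 of 290 (median 0.18) and bidirectional-promoter genes 4 of 38. Rows with AATAAA or ATTAAA near the annotated end had 92 of 561 lower (median 0.14), and rows without had 81 of 244 (median -0.35). Outside introns those medians were 0.17 for 545 rows and -0.21 for 215.

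The host genes of these intronic RNAs did not share their values. For 42 intronic rows with 1 tested host, the median was -2.83 and 30 were lower, whereas their 38 different hosts had a median of -0.59 and 9 were lower. In 36 of the 42 the intronic RNA had the lower log2 difference. These include Gm26878 (-0.62), A130014A01Rik (-0.05) and Zfp469 (0.70), none of them called, which share the host Gm20388. That host had an extreme value of 14.2 and overlaps Fendrr on the opposite strand, so its value is uncertain. Gm26978 was at -7.66 and its host Rbpms, an RNA-binding protein gene, at 0.48. Gm15859 was at -5.08 and its host Hmox2, a heme oxygenase gene, at 0.35. Reads of an annotated intronic RNA and of the unspliced RNA of its host cannot be told apart in this table.

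Among single long noncoding genes, chosen as the 8 lowest of 72 and the 8 highest of 24 that had at least 2 CPM in the higher preparation and passed the other conditions, the lowest held Lncpint and 7 genes known by model or clone names. Lncpint, a p53-induced RNA that binds Polycomb, was at 0 to 0.188 CPM in PolyA (median 0.0525) and 22.4 to 32.6 in RiboZero (median 27.4), a log2 difference of -8.64. Gm10855 and Gm10115 lie within Celf2, an RNA-binding protein gene, and were at least 172-fold and 97.8-fold lower. Gm20705, within Foxp1, was at least 64.2-fold lower, AC132307.5, antisense to Zfp532, 53.7-fold, Gm20682, within Foxn3, 51.2-fold and Hm629797, within Phkb, 35.9-fold, each against a floor of 3 counts. Gm14636 was at -7.81.

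Fendrr, an RNA next to Foxf1 that is needed in lung and heart development, was at 301 to 582 CPM in PolyA (median 461) and 135 to 232 in RiboZero (median 177), a log2 difference of 1.35 (adjusted p = 5.92e-13). A930001A20Rik was the highest, at 2.11 to 4.32 CPM against 0.213 to 1.14, a log2 difference of 2.203. The other 6 were Gm11611 (1.58), Gm15587 (1.54), Gm14286 (1.37), Uckl1os (1.29), Gm16124 (1.29) and A530020G20Rik (1.24). Over 806 long noncoding genes the rho with length was -0.262 and that with GC 0.304, as a description.

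**Figure D5:**
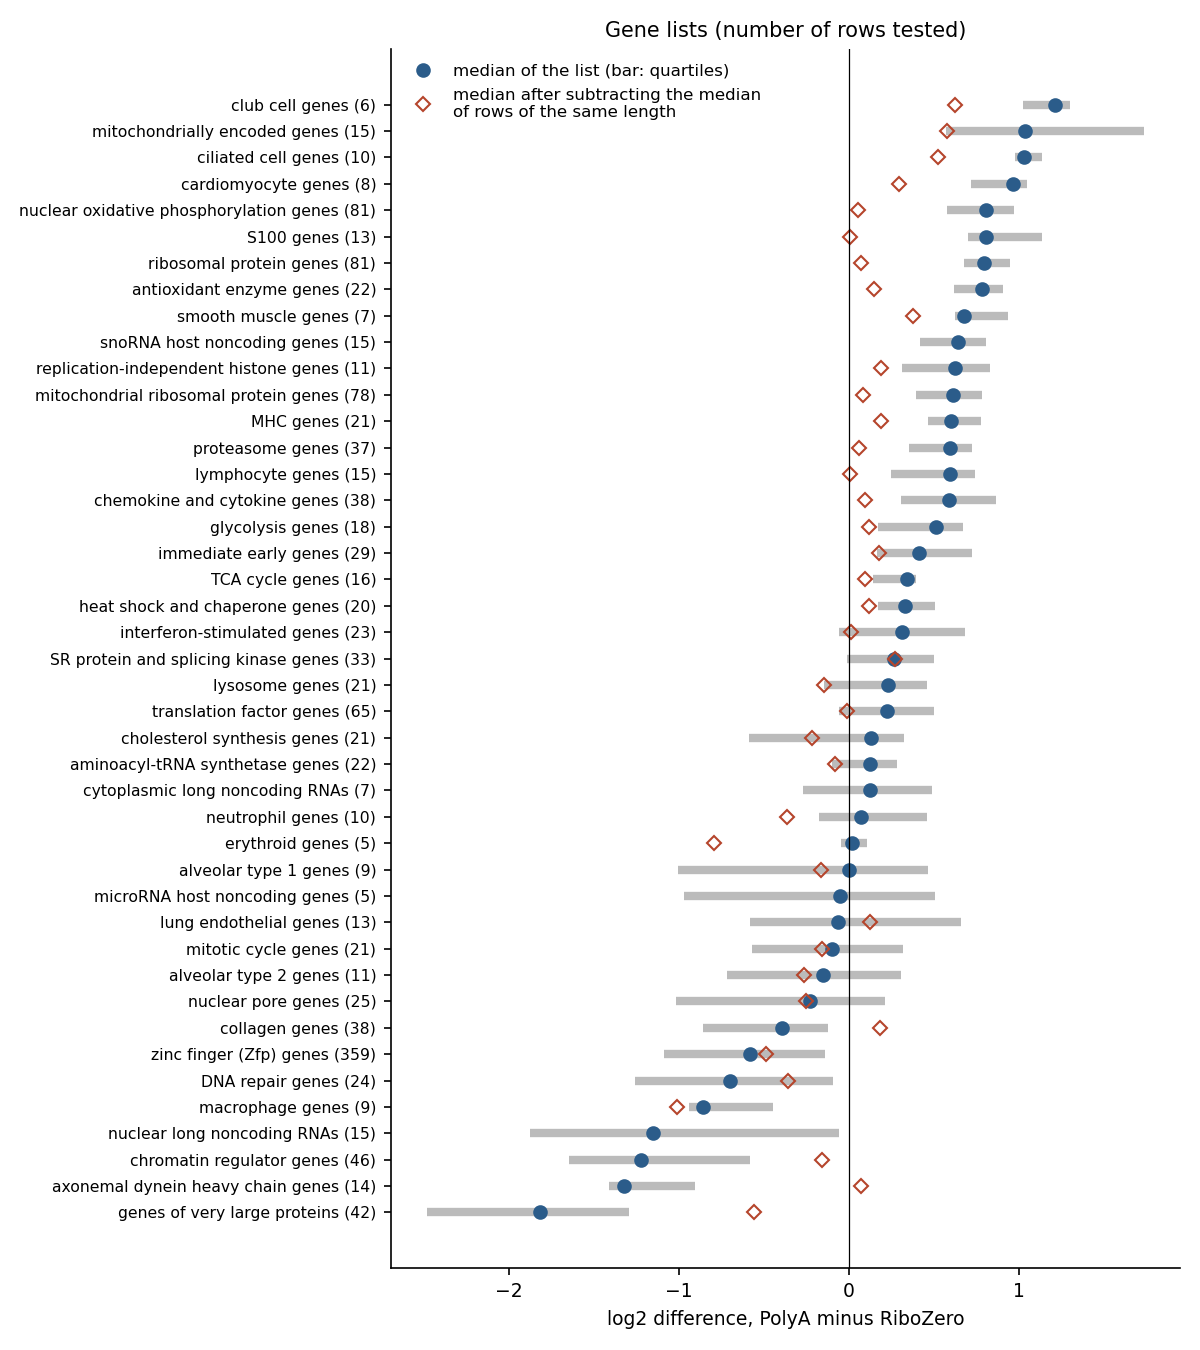
Median log2 difference of each gene list (points) with quartiles (bars), and the same median after subtracting that of protein-coding rows of like length (diamonds). Replication-dependent histone, RNA polymerase III and clock genes and lists with fewer than 5 tested genes are not drawn. Very large proteins (-1.82) lie lowest among the protein-coding lists drawn, and ribosomal protein genes move from 0.80 to 0.07 with the subtraction.

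By their medians, lists of genes for translation and respiration were shifted upward in PolyA. Of 81 ribosomal protein genes, whose transcripts are short, 16 were higher and 0 lower (19.8% higher, against 5.54% of all protein-coding rows), with a median of 0.80. The number higher was 63 with total count scaling, under which 2645 of the 14741 protein-coding rows were higher, 75 by adjusted p alone and 2 among rows with under 10% shared words, which only 9 of the 81 are. Nuclear oxidative phosphorylation genes had 15 of 81 higher (18.5%, median 0.81). Mitochondrial ribosomal protein genes had 4 of 78 (5.13%, median 0.61) and proteasome genes 2 of 37 (5.41%, median 0.60), near the 5.54% of protein-coding rows. Each of these lists had 0 lower. The oxidative phosphorylation count was 56 with total count scaling, 80 by adjusted p alone, 24 without a filter and 9 with glmTreat, which tests against a 2-fold difference. After subtracting the median of protein-coding rows of the same length class, an alternative chosen after seeing the data, these medians became 0.07, 0.06, 0.08 and 0.06.

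Rps29, a small-subunit ribosomal protein, was at 346 to 379 CPM in PolyA (median 361) and 128 to 169 in RiboZero (median 140), a log2 difference of 1.35. Atp5g3, a subunit of the ATP synthase rotor, was at 107 to 130 CPM (median 120) and 42.3 to 51.4 (median 45.8), a difference of 1.37. The libraries did not overlap for either gene. Cox5a of cytochrome oxidase (1.20), Uqcrq of complex III (1.26), Mrpl12 (1.54), Mrpl33 (1.23) and the proteasome subunit Psmb5 (1.02) were also called. Rps12 was listed at 0 in all RiboZero libraries and at 386 to 472 CPM in PolyA. It shares 29.8% of its 31-base words with other genes, so its value is uncertain. Among translation factors 2 of 65 were higher and 2 lower; Eif1, which selects start codons, was at 458 to 597 CPM in PolyA (median 524) and 129 to 168 in RiboZero (median 147), a difference of 1.84.

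Mitochondrially encoded genes, transcribed from the mitochondrial genome with short poly(A) tails on most mRNAs, went both ways. Of 15 tested, 9 were higher and 2 lower, and the 2 were the ribosomal RNAs. Of the 6 rows with under 10% shared words 3 were higher. mt-Rnr2, the large rRNA, was at 259 to 417 CPM in PolyA (median 320) and 17801 to 26587 in RiboZero (median 21600), a log2 difference of -6.05, and mt-Rnr1 was at -4.20. mt-Nd2 (2.00), mt-Nd4 (1.82) and mt-Cytb (1.74) were higher in PolyA, and mt-Nd6, the 1 mRNA of the light strand, was at -0.11. The members thus moved apart within a class whose summed share of all counts did not differ by the test. Over the protein-coding and long noncoding total the summed share was lower in PolyA, as given above. That total leaves out the ribosomal RNAs, while the sum holds them, so the sum does not describe the mRNAs alone. Several of the mitochondrially encoded genes share words with nuclear copies, mt-Nd4l at 98.9%.

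Metabolic and stress lists had few calls. Glycolysis genes had 2 of 18 higher (11.1%, median 0.51) and antioxidant enzyme genes 3 of 22 (13.6%, median 0.78), against 5.54% of protein-coding rows. Each had 0 lower. Tricarboxylic acid cycle genes (16 tested), cholesterol synthesis genes (21) and chaperone genes (20) had 0 called in either direction. Lysosome genes had 1 of 21 in each direction, and aminoacyl-tRNA synthetase genes 1 of 22 lower. Immediate early genes, whose mRNAs are unstable, had 2 of 29 higher (6.90%, near the 5.54% of protein-coding rows) and 0 lower (median 0.41). Klf2, a shear-stress transcription factor of endothelium, was at 212 to 478 CPM in PolyA (median 272) and 91.3 to 197 in RiboZero (median 125). Its log2 difference was 1.16, and Jund was at 1.04. Chemokine and cytokine genes, also with short-lived mRNAs, had 3 of 38 higher (7.89%, near the same 5.54%) and 0 lower (median 0.59). The 3 were Ccl7 (1.42), Cxcl17 (1.38) and Ccl5 (1.09). With length subtracted, these 2 medians were 0.17 and 0.09.

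Genes of nuclear regulators lay lower. Of 46 chromatin regulator genes 25 were lower and 0 higher (54.3%, against 12.6% of protein-coding rows), with a median of -1.22, and -0.16 after the length subtraction. Setd2, the histone H3 lysine 36 methyltransferase, was at 6.97 to 21.4 CPM in PolyA (median 13.99) and 207 to 227 in RiboZero (median 215), a log2 difference of -3.93. Kdm5a, an H3K4 demethylase, was at -4.03, Crebbp, an acetyltransferase, at -2.82 and Kmt2c, an H3K4 methyltransferase, at -2.66. DNA repair genes had 10 of 24 lower (41.7%, against the same 12.6%) and 0 higher. Their median was -0.70, and -0.36 after the subtraction, and 6 were lower with total count scaling. Atm, the kinase that signals double-strand breaks, was at 4.29 to 7.65 CPM (median 6.31) and 52.5 to 69.5 (median 60.1), a difference of -3.28, and Prkdc (-2.26), Rev3l (-2.11) and Brca2 (-1.84) were also lower.

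Of 359 zinc finger genes named Zfp, 101 were lower (28.1%, against 12.6% of protein-coding rows) and 5 higher (1.39%, against 5.54%), with a median of -0.58. With total count scaling 67 were lower and 19 higher, and of all 14741 protein-coding rows 1114 were lower and 2645 higher. That median was -0.48 after subtracting length and -0.27 after subtracting length and GC together. Nuclear pore genes had 7 of 25 lower (28.0%), Nup98 (-2.53) and Ranbp2 (-1.99) among them, and 4 with total count scaling. Mitotic genes had 3 of 21 lower (14.3%), near the 12.6% of protein-coding rows. Neither list had any higher. SR protein and splicing kinase genes had 2 of 33 in each direction, with Son, a large nuclear speckle protein, at -1.33. Of 4 tested mRNAs known to be retained in the nucleus 1 was higher and 0 lower.

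The list of genes of very large proteins was chosen for length. Of its 42 genes 37 were lower and 0 higher. That is 88.1% lower, against 12.6% of protein-coding rows and 58.6% of their longest decile. The median was -1.82, and -0.56 after the length subtraction. Macf1, a linker of actin and microtubules, was at 600 to 919 CPM in PolyA (median 780) and 5330 to 6478 in RiboZero (median 5719), a log2 difference of -2.90. Ttn, the giant sarcomere protein of striated muscle, was at 1.12 to 26.6 CPM (median 13.9) and 42.4 to 629 (median 264), a difference of -4.39. The spread of Ttn among mice was wide in both selections, and the heart markers given above also ranged widely; their part in the result was not tested. Of 8 cardiomyocyte genes 4 were higher (50.0%, against 5.54% of protein-coding rows) and 1 was lower (12.5%, against 12.6%). The lower gene was the long calcium channel gene Ryr2 (-1.72). Utrn (-2.86), Lrp2 (-2.87) and Neb (-3.26) were also lower.

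Axonemal dynein heavy chains, the motors of cilia, had 8 of 14 lower and 0 higher. That is 57.1% lower, against 12.6% of protein-coding rows and 58.6% of their longest decile. Their median was -1.32, and 0.07 after the length subtraction. With total count scaling 5 were lower, as were 5 of the 11 rows with under 10% shared words. Dnah5, which is often mutated in primary ciliary dyskinesia, was at 41.1 to 112 CPM in PolyA (median 77.9) and 169 to 307 in RiboZero (median 227), a difference of -1.61, and Dnah12 was at -3.94. Collagen genes had 9 of 38 lower (23.7%, against 12.6% of protein-coding rows) and 0 higher, and 5 lower with total count scaling. Among the 9 were Col12a1 (-2.82) and the basement membrane chains Col4a3 (-2.25) and Col4a4 (-2.20). The collagen median went from -0.39 to 0.18 with the subtraction. S100 genes, which encode small calcium-binding proteins, had 4 of 13 higher (30.8%, against 5.54% of protein-coding rows) and 0 lower. Their median was 0.80, and 0.01 after the length subtraction.

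Lung cell type markers differed within a cell type. Both libraries of a mouse are from its lung. Ciliated cell genes had 7 of 10 higher (70.0%, against 5.54% of protein-coding rows) and 0 lower. Their median was 1.03, and 0.52 after the length subtraction. The number higher was 3 with TMM over protein-coding rows or glmTreat, and 4 with DESeq2, with median-of-ratios scaling or with at least 10 counts in every library. Cfap126, a basal body protein of motile cilia, was at 32.1 to 67.5 CPM in PolyA (median 50.3) and 13.4 to 23.5 in RiboZero (median 16.5), a log2 difference of 1.51. Foxj1, the master regulator of motile cilia, was at 1.05. These genes and the dynein heavy chains belong to the same cells and had medians on opposite sides of 0 before the length subtraction.

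Club cell genes had 4 of 6 higher (66.7%, against 5.54% of protein-coding rows) and 0 lower. Their median was 1.21, and 0.62 after the length subtraction. Scgb1a1, their main secreted protein, was at 28730 to 51040 CPM in PolyA (median 40425) and 9363 to 16786 in RiboZero (median 13436), a difference of 1.58, while the long mucin gene Muc5b was at 0.13 (adjusted p = 0.23). Of 11 alveolar type 2 genes 1 was higher (9.09%, against 5.54% of protein-coding rows), Nkx2-1, the lung lineage transcription factor (1.49). In the same list 2 were lower (18.2%, against 12.6%), with the phosphate transporter Slc34a2 at -1.31. Sftpc, surfactant protein C, was at 8770 to 13829 CPM and 5095 to 7661, a difference of 0.89 without overlap but under the 2-fold minimum. Alveolar type 1 genes had 3 of 9 lower (33.3%), with Akap5 at -1.87 and Clic5 at -1.14. Endothelial genes had 1 of 13 lower (7.69%, under the 12.6% of protein-coding rows), the VEGF receptor Kdr (-1.02). In lists this short, such shares rest on few genes.

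Of 9 macrophage genes 2 were lower (22.2%, against 12.6% of protein-coding rows, a difference of about 1 gene) and 0 higher. All 9 lay below 0, with a median of -0.86, and -1.01 after the length subtraction. Mrc1, the mannose receptor, was at 25.8 to 46.1 CPM in PolyA (median 34.6) and 89.0 to 143 in RiboZero (median 107), a difference of -1.67, and Siglecf was at -1.42, while Cd68 was at -0.12. Neutrophil genes (10 tested), MHC genes (21) and erythroid genes (5) had 0 called. Their medians were 0.07, 0.60 and 0.02, and after the length subtraction -0.36, 0.19 and -0.79. Of the 5 erythroid genes only 1 has under 10% shared words. Lymphocyte genes had 2 of 15 higher (13.3%) and smooth muscle genes 1 of 7 (14.3%), against 5.54% of protein-coding rows, each with 0 lower. Interferon-stimulated genes (23 tested) had 2 higher and 1 lower, clock genes (20) 1 higher and 2 lower, and of 8 hepatocyte genes 1 was tested and 0 were called.

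The difference between the selections was tested against genotype for each row, as the preparation by genotype term. At adjusted p under 0.05, 1 of 17228 rows (0.0058%) was called, and 908 had an unadjusted p under 0.05. The row was Arntl itself. Its PolyA minus RiboZero log2 ratio per mouse was -0.576 to -0.430 in WT and -0.101 to 0.171 in KO, without overlap, and the ratio in KO exceeded that in WT by 0.568 (SE 0.0526, adjusted p = 0.000336). Without the pairing by mouse its adjusted p was 0.097 and 0 rows were called, with 288 at an unadjusted p under 0.05, and DESeq2 called 13. Leaving out KO6 added Col12a1 (0.83, adjusted p = 0.0213, against 0.543 with all mice).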

How the data were processed

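Lung RNA of 12 mice was analysed in 24 libraries, taken from a table of estimated counts per gene that the authors deposited. Per the submitters' processing notes, Salmon 1.4.0, UMI-tools 1.1.1 and the build GRCm38 were used; the annotation, strand setting and order of steps are not given in the sources used here. Salmon divides reads that fit several transcripts among them, so genes with near-identical copies are uncertain.

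The members, gene lists and length-related questions were chosen with earlier results of these data known. Estimated counts were rounded to whole numbers, rows with too few counts were removed with filterByExpr, and PolyA and RiboZero were compared with edgeR 4.0.16 in R 4.3.3 (TMM scaling, quasi-likelihood test, mouse as a block, Benjamini-Hochberg adjustment over 17228 rows), after the scripts were tested on simulated data. CPM are counts scaled to a common TMM-adjusted total. The mouse names in the labels pair the libraries, and over 14471 rows deviations from the group means correlated at 0.508 to 0.775 within a mouse, each library best with its own partner. All 60 pairs of libraries within a group differed beyond counting noise. Shares used exact sign-flip tests, and ratios per mouse a pseudocount of 0.1 CPM. Lengths, positions, sequences and shared 31-base words were taken from GENCODE M21, in which 37649 of the table's gene rows were found; the counting may have used another release. Of rows in the table, 13090 were at 0 in all 24 libraries.

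Named genes were the 10 protein-coding genes at each end among called genes with at least 10 CPM in the higher preparation, no overlap of libraries, under 10% shared words and outside the ribosomal protein, mitochondrial and histone lists. For long noncoding genes they were the 8 at each end at 2 CPM, and for each list up to 4 members, called ones with the largest fold first. Alternatives were other scalings, filters, tests and thresholds, thinned counts, WT or KO mice alone, no block and each mouse left out. DESeq2 1.42.0 served where it is named, and the other fits used edgeR. The 8 libraries of the series without selection were not used here.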

Additional observations from a re-analysis of the deposited data

Results flagged for a closer look

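Arntl had a log2 difference between PolyA and RiboZero that was 0.568 higher in KO than in WT mice, by the test of the preparation by genotype term, and its ratios per mouse did not overlap between genotypes.

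In 50 groups of 6 libraries checked for a library standing far from the others, 3 were found, and chance gives about 1 in 20. The PolyA library of WT1 had 0.02021% of its counts in replication-dependent histone genes, against a group median of 0.01603%. The RiboZero library of KO6 had 1.121% in rows named by transcript identifiers, against 1.212%. The PolyA library of WT2 had 18.6% of its protein-coding counts in the shortest decile of genes, against 16.54%. Each of these values lay on its own selection's side of the comparison with the other selection.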

How the results depend on the processing

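Of 17228 rows, 1145 were called higher in PolyA, and this count was 593 with at least 10 counts in every library, 663 with glmTreat, 746 among rows with under 10% shared words, 1960 without a filter, 3215 with total count scaling and 8111 by adjusted p alone. The 2647 lower became 4084 without a filter and 7070 by adjusted p alone. For protein-coding rows the higher count was 512, 467, 1247, 2645 and 7192 (10 counts, glmTreat, no filter, total count, adjusted p alone), and the lower count 1114 with total count scaling and 5978 by adjusted p alone. For long noncoding rows the higher count was 20, 24, 174, 162 and 325 in the same order, and the lower count 85 with 10 counts, 441 without a filter and 324 by adjusted p alone. Libraries thinned to the smallest total gave 971 and 2298. Without the pairing by mouse (no replicate block), 1126 rows were higher and 2635 lower, and leaving out each mouse gave 1106 to 1250 and 2614 to 2682.

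The rows that depended on genotype numbered 13 with DESeq2, 0 without the replicate block and 1 to 2 with each mouse left out (2 without KO6). The rho with length was -0.491 with median transcript length, -0.497 with coding length, -0.684 with 10 counts and -0.677 with under 10% shared words. Over the protein-coding and long noncoding total, the PolyA minus RiboZero share difference was 0.115 percentage points for protein-coding genes (exact permutation p = 0.232). It was -0.635 for mitochondrially encoded genes (exact permutation p = 0.000488), a class that still held the ribosomal RNAs left out of that total. For long noncoding genes without Malat1 it was -0.00684 (exact permutation p = 0.792). The mitochondrial share difference, not past the test, was -0.0391 to 0.0189 with each mouse left out, above 0 without KO1 (0.0136) or KO5 (0.0189). Why these values moved was not tested, beyond the fewer or more rows that a filter leaves.

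Among values of named genes under the alternatives, 1216 kept direction and call and 7 gained a call. Total count scaling turned the sign of the medians of nuclear pore, mitotic, alveolar type 2 and endothelial genes. RiboZero depth and the floor of 3 counts per library limit folds of RNAs near 0 in PolyA, and gene copies, overlapping genes and the release used for counting, not given in the sources used here, limit single genes.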
